A study of Mus musculus with 6 samples.

Results

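Transcripts of 9 receptors for transforming growth factor β (TGF-β) and bone morphogenetic proteins (BMPs) were followed in mouse blood progenitor-like cells before and after 2 h of TGF-β1. The receptors were chosen by name: the type I receptors Tgfbr1, Acvr1b, Acvrl1, Acvr1 and Bmpr1a, the type II receptors Tgfbr2 and Bmpr2, and the co-receptors Eng and Tgfbr3. All 9 had a probe on the array and all 9 entered the test, among 29194 genes and transcripts tested. The cells were of the line Lhx2, an immortalized haematopoietic progenitor line named for the homeobox gene whose forced expression established it, and were grown in stem cell factor and interleukin 6. All 6 samples had been starved of serum overnight; 3 were then left untreated (0 ng/ml) and 3 received TGF-β1 at 10 ng/ml for 2 h. The RNA came from 3 independent harvests, and samples of both groups that share a replicate number are treated as 1 harvest, or pair. The labels name 1 line and do not say whether it is a clone or whether the harvests were separate cultures, so p-values measure the spread between these samples.

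Ligands of this family bind a pair of type II and a pair of type I receptors, and the type II kinase phosphorylates the type I kinase, which then phosphorylates receptor SMADs. TGF-β itself uses Tgfbr2 with Tgfbr1, while BMPs and activins use other combinations of type I and type II chains. Co-receptors lack a kinase and present ligand to the signalling receptors. In blood stem and progenitor cells TGF-β is best known as a brake on proliferation.

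The array measured total RNA with 1 colour, and each array's 75th percentile of background-subtracted signal lay between 794.2 and 1031. Levels are given as log2 of a probe's signal over that percentile, so that 0 is the percentile itself; they compare 1 probe between arrays and not one gene with another. All 14 markers of blood progenitors, Kit, Cd34 and Ptprc among them, were detected, with a summed level of 193 to 217 untreated and 192 to 220 treated (multiples of the 75th percentile). Such a sum is weighted to the probes of largest signal and hides opposite shifts. Of the 14, 5 were higher in all 3 pairs and 5 lower (14.1% and 20% of all genes), and 0 passed the limma treatment test. The log2 change was 0.39 for Cd34 and 0.76 for Gata2, but -0.46 for Kit and -0.62 for Myb. The untreated array of harvest 3 had the lowest share of probes well above background (82.9%) and the treated array of that harvest the highest (90.3%). These arrays also lay on different slides, so in the harvest 3 pair treatment cannot be told apart from slide or from this difference. In bulk RNA fewer cells carrying a transcript and less transcript per cell cannot be told apart.

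No receptor transcript passed the test, and the values leaned upwards. Bmpr2 (1.97-fold) and Eng (1.89-fold) had the largest differences of the 9 and were higher in every harvest. Tgfbr1, Acvr1b, Acvr1 and Tgfbr2 were also higher in every harvest, with smaller mean differences, and for Acvrl1, Tgfbr3 and Bmpr1a the sign differed between harvests. By limma with Benjamini-Hochberg adjustment over all genes, 0 of 9 receptors passed an adjusted p of 0.05, against 0.253% of all genes and transcripts tested (74, of which 66 were higher and 8 lower). With the replicate number as a block, 0 of 9 passed again, against 0.651% of all (190). At an unadjusted p under 0.05 the counts were 4 of 9 without the block, all upwards, against 5.77% of all genes (3.62% upwards and 2.15% downwards), and 5 of 9 with it, against 10.9%. The 9 receptors had a median log2 change of 0.42 and 8 positive values; over all genes the median was -0.01 and 48.6% were positive. The treated arrays lay above every untreated array for Bmpr2, Eng, Tgfbr1 and Acvr1b, which was so for 5.37% of all genes, and for none did they lie below every untreated array (5.05% of all genes, or 10.4% in either direction). A total of 6 receptors were higher in all 3 pairs (14.1% of all genes) and 0 lower (20% of all genes).

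**Figure D1:**
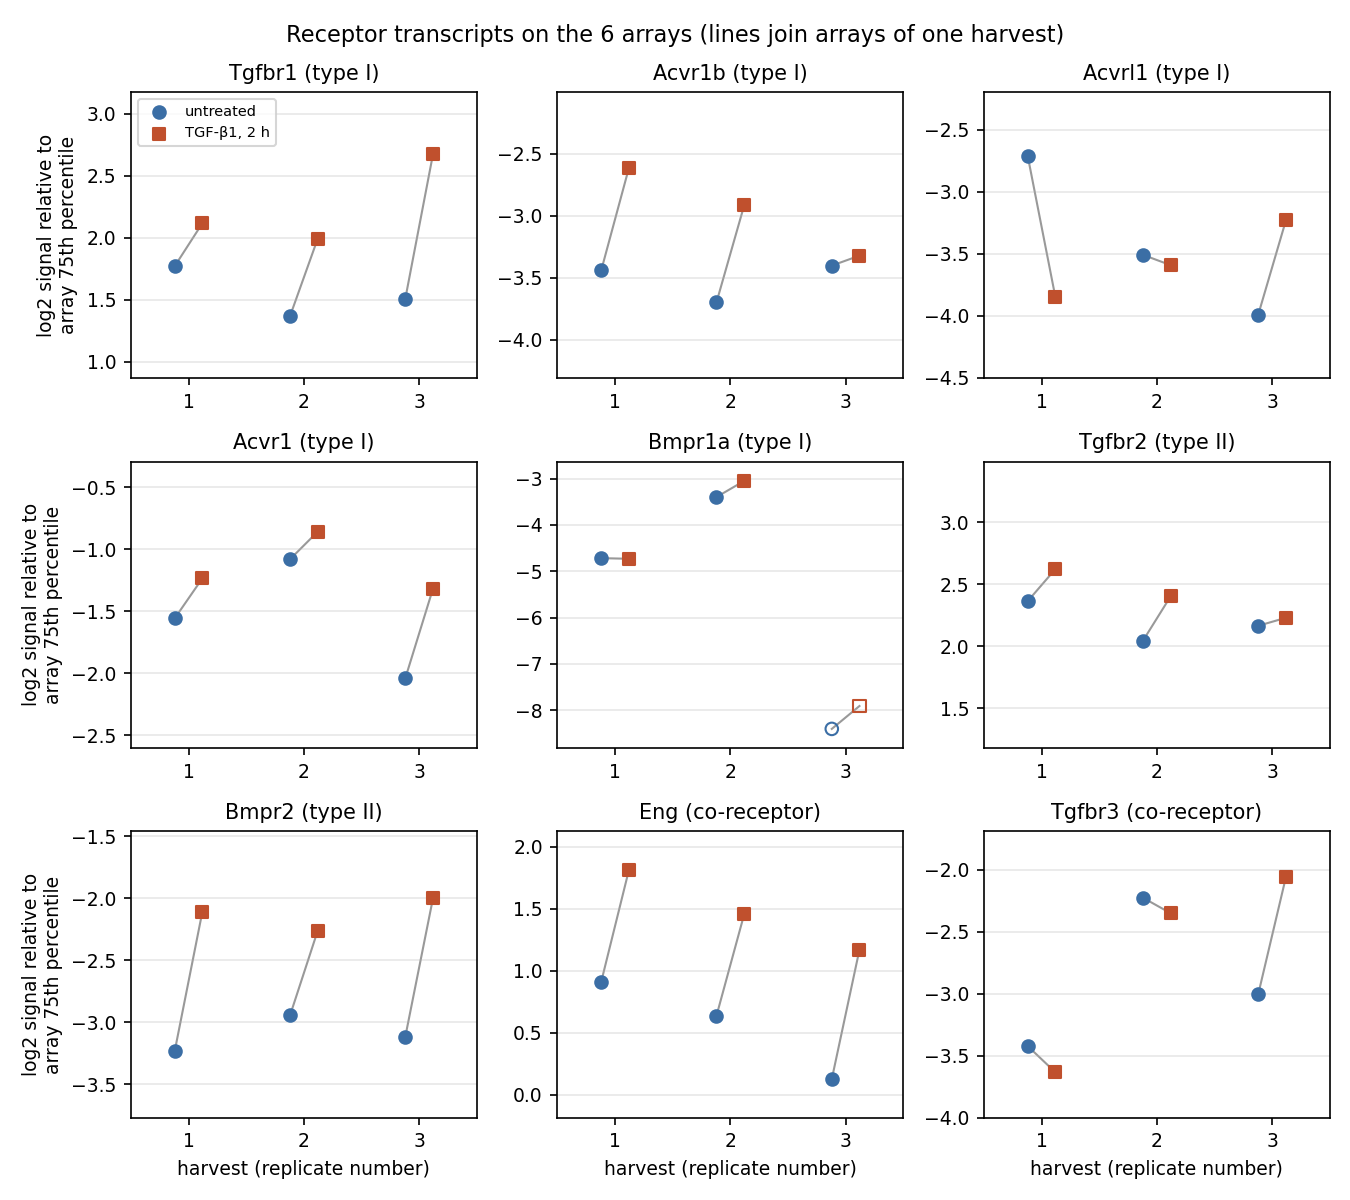
Level of each receptor on the 6 arrays, as log2 signal relative to the array's 75th percentile, by harvest; circles are untreated, squares TGF-β1, lines join arrays of 1 harvest, and open symbols are not well above background. The treated Bmpr2 arrays lie above similar untreated levels, the treated Eng arrays lie above untreated levels that differ between harvests, and the Bmpr1a arrays of 1 harvest lie close together.

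**Figure D2:**
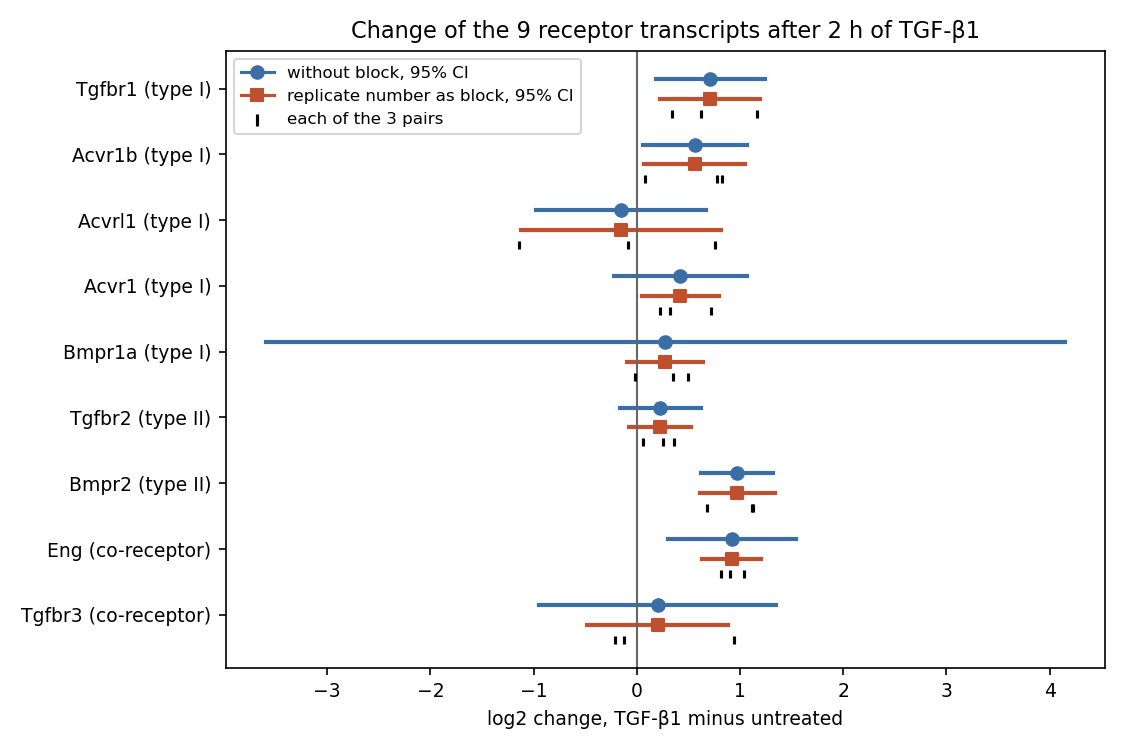
Log2 change of each receptor, TGF-β1 minus untreated, with 95% confidence intervals from limma without a block (circles) and with the replicate number as a block (squares); ticks are the 3 pairs. The intervals of Bmpr2 (0.62 to 1.32) and Eng (0.30 to 1.54) lie above 0 and are not adjusted for the number of genes, and that of Bmpr1a narrows most with the block.

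Bmpr2 encodes the type II receptor that BMPs share, a kinase with a long cytoplasmic tail. The level of its transcript was -3.23, -2.95 and -3.12 in untreated harvests 1, 2 and 3. After TGF-β1 it was -2.11, -2.26 and -2.00. The groups did not overlap, and the spread within each group was small (-3.10 ± 0.14 and -2.12 ± 0.13, mean ± SD, n = 3). TGF-β1 minus untreated was 0.97 on the log2 scale (SE 0.15, 95% confidence interval 0.62 to 1.32), or 1.97-fold with an interval of 1.54 to 2.504, and the limma adjusted p was 0.0783 (0.0874 with the replicate block). The pairs gave 1.12, 0.68 and 1.12. The size depended on the values used: it was 0.44 (SE 0.33, adjusted p = 0.987) with normexp correction of median spot signals scaled to the 75th percentile, a setting that moved the median of all genes to -0.16, and 0.58 (adjusted p = 0.0658) with normexp followed by quantile normalization. A single probe reports Bmpr2, well above background on all 6 arrays.

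The bases before the start of the 3 receptors on which the results turn most are shown because TGF-β and BMP signals reach DNA through SMAD proteins. On the reported values they are Bmpr2 and Eng, with the largest treatment changes, and Bmpr1a, with the largest difference between harvests. The Bmpr1a difference rests on harvest 3 values that are not well above background. Each is the 250 bases before the RefSeq start, 5′ to 3′ on the gene's strand (build GRCm38.p6): chr1:59764029-59764278 on the plus strand for Bmpr2, chr2:32646345-32646594 on the plus strand for Eng and chr14:34502547-34502796 on the minus strand for Bmpr1a. Capitals mark matches on either strand to CAGAC, which holds the SMAD box, or to GGCGCC, a GC-rich SMAD motif that reads the same on both strands.
Bmpr2: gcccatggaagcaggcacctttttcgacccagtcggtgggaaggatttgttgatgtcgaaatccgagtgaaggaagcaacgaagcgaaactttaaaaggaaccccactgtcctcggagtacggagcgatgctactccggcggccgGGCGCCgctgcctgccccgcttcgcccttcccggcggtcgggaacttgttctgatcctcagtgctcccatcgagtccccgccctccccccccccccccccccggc
Eng: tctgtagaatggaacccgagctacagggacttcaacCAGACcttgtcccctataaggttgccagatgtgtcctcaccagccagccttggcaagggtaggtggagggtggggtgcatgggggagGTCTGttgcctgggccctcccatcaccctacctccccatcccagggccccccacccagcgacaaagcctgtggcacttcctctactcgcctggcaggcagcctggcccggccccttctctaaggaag
Bmpr1a: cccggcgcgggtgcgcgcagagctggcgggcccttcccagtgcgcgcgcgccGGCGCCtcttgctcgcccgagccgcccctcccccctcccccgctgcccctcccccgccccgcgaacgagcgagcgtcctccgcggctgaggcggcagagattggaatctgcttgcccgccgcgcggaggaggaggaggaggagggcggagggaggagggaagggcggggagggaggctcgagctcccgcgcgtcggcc
Bmpr2 had 1 GGCGCC, which began 105 bases before the start, and Bmpr1a had 1, at 198 bases. Eng had CAGAC or its complement at 214 and 127 bases. Over all 32851 windows of the same length, 42.2% held CAGAC, 9.59% GGCGCC and 0.167% the palindrome GTCTAGAC. Of the 9 receptors 7 had a window in the RefSeq table. In these, 3 had CAGAC (Eng, Tgfbr2 and the second of 2 windows of Tgfbr1), 3 had GGCGCC (Bmpr2, Bmpr1a and the first window of Tgfbr1) and 0 had the palindrome, and no matches overlapped. A match is a run of letters, not a measured binding site.

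Tgfbr2 encodes the type II receptor that binds TGF-β1 itself. Its level was 2.36, 2.04 and 2.16 in the untreated harvests and 2.62, 2.40 and 2.23 after treatment. Each treated array was above the untreated array of its own harvest, by 0.26, 0.36 and 0.06, and the groups overlapped. The log2 change was 0.23 (SE 0.16, 95% confidence interval -0.16 to 0.62, limma adjusted p = 1), so the interval runs from 0.893-fold to 1.54-fold. A second probe, on another RefSeq transcript of the gene, gave 0.18 (SE 0.14).

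Tgfbr1 encodes the type I kinase that pairs with Tgfbr2 and phosphorylates Smad2 and Smad3. Its level was 1.77, 1.37 and 1.51 in the untreated harvests and 2.12, 1.99 and 2.67 after treatment. All treated arrays lay above all untreated ones, with the harvest 3 treated array highest. The log2 difference of 0.71 (SE 0.22, 95% confidence interval 0.18 to 1.24, limma adjusted p = 0.534; 0.271 with the replicate block) is 1.64-fold. The pair values spread from 0.35 and 0.62 to 1.16. A second probe of the gene had 0.52 (SE 0.20) and pair levels that were also higher in each treated array. The value was 0.42 with array weights and 0.49 from harvests 1 and 2 alone, as a blocked fit.

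Acvr1b encodes the type I receptor of activins and nodal (ALK4). Its level was -3.44, -3.70 and -3.40 in the untreated harvests and -2.61, -2.92 and -3.32 after treatment. The groups did not overlap, but the harvest 3 arrays were nearly level: the pairs gave 0.83, 0.78 and 0.08. The log2 change was 0.56 (SE 0.21, 95% confidence interval 0.06 to 1.07, limma adjusted p = 0.744). It was 0.12 with normexp scaled to the 75th percentile and 0.24 with normexp and quantile normalization. From harvests 1 and 2 alone with the pair as a block it was 0.80 (adjusted p = 0.0766).

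Acvr1 encodes a type I receptor of BMPs that also takes part in activin signalling (ALK2). Its level was -1.56, -1.08 and -2.04 in the untreated harvests and -1.24, -0.86 and -1.32 after treatment. Treated arrays were higher within each harvest, by 0.32, 0.22 and 0.72, while the groups overlapped, with harvest 2 high and harvest 3 low. On the log2 scale the change was 0.42 (SE 0.27, 95% confidence interval -0.22 to 1.07, limma adjusted p = 1), and with the replicate block the SE was 0.14 and the adjusted p 0.392. Within slide 2 it was -0.01, where the treated arrays are of harvests 2 and 3 and the untreated array of harvest 2.

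Acvrl1 encodes ALK1, the type I receptor through which BMP9 and BMP10 and, with endoglin, TGF-β signal in endothelium. Its level was -2.71, -3.51 and -3.99 in the untreated harvests and -3.85, -3.59 and -3.23 after treatment. The harvests disagreed: the pairs gave -1.14, -0.08 and 0.76. The mean log2 change was -0.15 (SE 0.34, 95% confidence interval -0.98 to 0.67, limma adjusted p = 1), and its sign turned when untreated replicate 1 was left out (0.19).

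Endoglin (Eng) is a co-receptor that binds ligand together with type II receptors and is known from endothelium and from early blood stem cells. Its level was 0.91, 0.64 and 0.13 in untreated harvests 1, 2 and 3 and 1.81, 1.46 and 1.17 after treatment. Every treated array was above every untreated one, and harvest 3 was lowest in both groups. The pairs gave nearly equal steps of 0.90, 0.82 and 1.04. The log2 change was 0.92 (95% confidence interval 0.30 to 1.54), or 1.89-fold with an interval of 1.23 to 2.91. Its standard error was 0.26 without the block (limma adjusted p = 0.426) and 0.11 with it (adjusted p = 0.0631). Of the 12 endothelial markers 11 were detected (Tek was not), 0 of 11 passed and their summed level was 2.79 to 3.54 untreated and 3.30 to 3.73 treated, higher in the treated array of each pair; their part in the Eng values was not tested. Of these Esam, an endothelial adhesion molecule, had -1.38, -1.61 and -2.13 untreated and -0.74, -1.32 and -1.62 treated. Its log2 difference was 0.48 (SE 0.29, limma adjusted p = 1; 0.251 with the replicate block). Esam, Vwf (0.17, SE 0.15) and Flt1 (0.17, SE 0.14) were the 3 of 11 that were higher in all 3 pairs, and 7 of 11 were positive. Sox18 had 0.30 (SE 0.27), Cdh5 (VE-cadherin) 0.13 (SE 0.45), Kdr (VEGF receptor 2) -0.09 (SE 0.13) and Pecam1 0.05 (SE 0.19).

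With the replicate block and other value sets, Bmpr2 and Eng did pass. These combinations were chosen after the data were seen. With quantile normalization and the block, 2 receptors passed: Bmpr2 (log2 change 0.96, limma adjusted p = 0.0387) and Eng (0.93, adjusted p = 0.0351). With the authors' matrix values and the block the same pair passed, Bmpr2 at 0.75 (adjusted p = 0.0209) and Eng at 0.89 (adjusted p = 0.0102). With normexp, quantile normalization and the block they were again Bmpr2 (adjusted p = 0.0173) and Eng (0.84, adjusted p = 0.00593). With normexp scaled to the 75th percentile and the block neither did (adjusted p = 0.535 for Bmpr2 and 0.172 for Eng). Array weights without a block gave Bmpr2 alone (0.94, adjusted p = 0.0123), with a weight of 5.34 for treated replicate 2 and of 0.373 to 1.95 for the others. Of all 29194 genes and transcripts, the block called 369 with quantile normalization, 714 with the matrix values and 981 with normexp and quantile normalization. Normexp scaled to the 75th percentile with the block called 0, array weights 660 and the main fit 74. Over 27 alternative settings Bmpr2 ranged from 0.44 to 1.12 and Eng from 0.68 to 1.29. Positive values held in all 27 for Bmpr2, Eng, Tgfbr1, Tgfbr2 and Acvr1b.

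**Figure D3:**
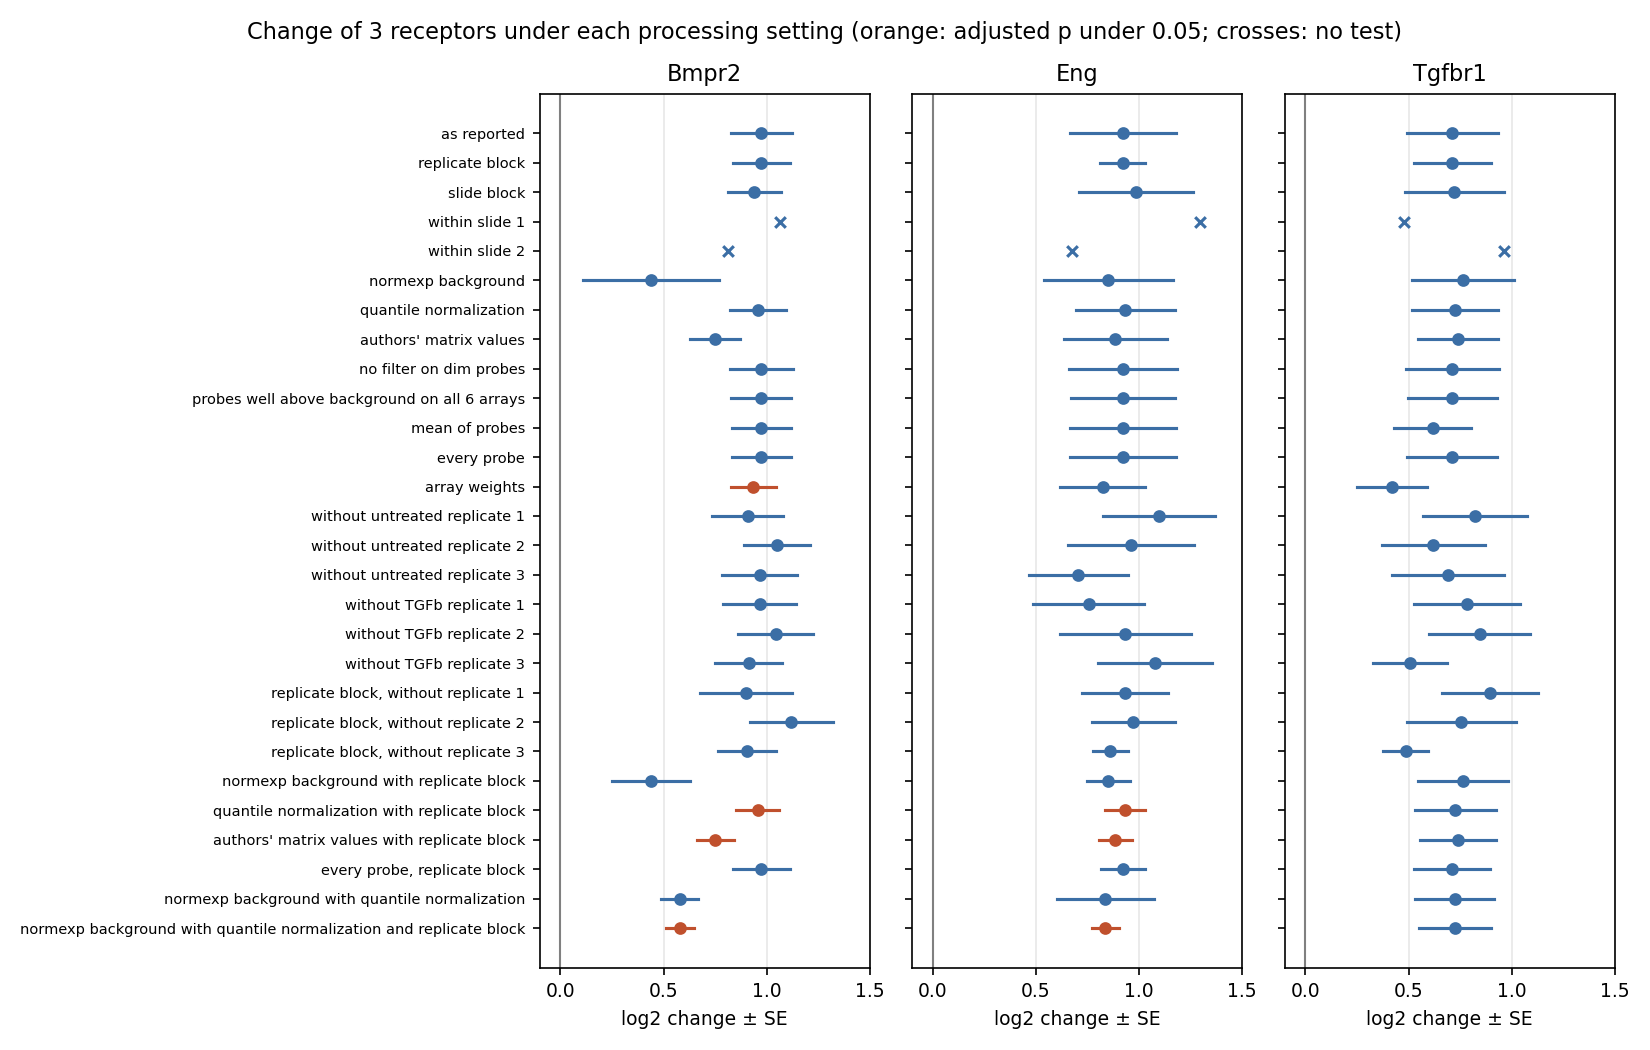
Log2 change ± SE of Bmpr2, Eng and Tgfbr1 under each processing setting, on 1 common axis; orange marks an adjusted p under 0.05, and crosses are differences within 1 slide with no test. Every point lies above 0, Bmpr2 is smallest with normexp (0.44), and the orange points are 4 for Bmpr2, 3 for Eng and 0 for Tgfbr1.

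Tgfbr3 encodes betaglycan, the co-receptor that captures TGF-β2 and inhibin. Its level was -3.42, -2.23 and -3.003 in the untreated harvests and -3.63, -2.35 and -2.06 after treatment. Treated arrays were slightly lower in harvests 1 and 2 (-0.21 and -0.12) and higher in harvest 3 (0.94). The log2 change was 0.20 (SE 0.48, 95% confidence interval -0.95 to 1.35, limma adjusted p = 1), and it turned negative in 7 of 27 settings, at -0.17 from harvests 1 and 2 alone.

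Bmpr1a encodes ALK3, a type I receptor for BMP2 and BMP4, and its level differed between harvests on the reported values. Its level was -4.72, -3.40 and -8.41 in untreated harvests 1, 2 and 3 and -4.73, -3.05 and -7.91 after treatment. Its probe was well above background on both arrays of harvests 1 and 2 and on neither array of harvest 3, so harvest 3 gives only a bound. On these background-subtracted values harvest 1 was at least 4.49-fold and harvest 2 at least 12.7-fold above harvest 3, and harvest 2 was 2.83-fold above harvest 1. In a limma F test of the 3 harvests with treatment in the model, Bmpr1a was the 1 of 9 receptors that passed (adjusted p = 0.00185), against 3.06% of all genes and transcripts (893). That test took the harvest 3 values of -8.41 and -7.91 as read, although they lie under the mean bound of -6.89. Its p therefore does not rest on a measured harvest 3 level. The Bmpr1a result also depended on the value set. With the authors' matrix values harvests 1 and 2 were 2.05-fold and 3.73-fold above harvest 3 (adjusted p = 0.00131), both under the bounds above. With normexp and quantile normalization, added after the data were seen, they were 1.41-fold and 2.001-fold above it (adjusted p = 0.00404). With normexp scaled to the 75th percentile the order turned: harvest 3 was the highest, by 1.205 over harvest 1 and 0.49 over harvest 2 on the log2 scale (adjusted p = 0.0715). Bmpr1a entered the test only through harvests 1 and 2. Without a filter on dim probes the adjusted p of the F test was 0.0059, from the same harvest 3 values, so it adds no separate evidence. The bound uses, on each harvest 3 array, the lowest signal of any probe well above background. A second Bmpr1a probe was not well above background on any array. The treatment change from 6 arrays was 0.28 with a 95% confidence interval of -3.60 to 4.15, and the pairs measured above background gave -0.01 and 0.35.

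The arrays of harvest 1 lay on slide 1, those of harvest 2 on slide 2, and harvest 3 had 1 array on each. On slide 1 both harvest 1 arrays were at -4.72 and -4.73 and the untreated harvest 3 array at -8.41; on slide 2 the harvest 2 arrays were at -3.40 and -3.05 and the treated harvest 3 array at -7.91. Both harvest 3 values are not well above background, and harvests 1 and 2 cannot be told apart from their slides. Rgma, a BMP co-receptor of the repulsive guidance family, showed the same order, with -1.59, 0.48 and -4.66 untreated and -2.14, 0.32 and -4.61 treated (harvest adjusted p = 0.00207). Its level in harvest 2 was 32.7-fold above harvest 3, and 16.2-fold with the matrix values and 5.67-fold with normexp scaled to the 75th percentile.

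Some markers of stromal cells moved with these values. Of 12 measured, 6 passed the harvest test and all 6 were lowest in harvest 3: Col1a1, Col1a2, Col3a1, Dcn, Pdgfra and Sparc. With the matrix values, quantile normalization and normexp with or without quantile normalization, the same 6 passed and were lowest in harvest 3. The other 6 did not pass on the reported values. With normexp scaled to the 75th percentile 9 of 12 passed, among them Cxcl12, Lum and Postn, which were highest in harvest 3. With normexp and quantile normalization 7 of 12 passed, among them Thy1, which was also highest in harvest 3. Thy1 was highest in harvest 3 (0.98, 0.87 and 1.28 in harvests 1, 2 and 3), Acta2 lowest in harvest 2 (3.63, 3.13 and 3.38), and Pdgfrb had -1.32, -0.81 and -1.60. Lum, Postn and Cxcl12 in harvests 1 and 2 were 0.89-fold to 1.15-fold of harvest 3. Col1a1, a chain of type I collagen, was 12.1-fold higher in harvest 1 and 56.5-fold higher in harvest 2 than in harvest 3, and decorin (Dcn) 30.1-fold and 76.0-fold. The summed level of the 12 was 34.4 and 42.5 in harvest 1, 78.0 and 75.5 in harvest 2, and 17.4 and 12.9 in harvest 3 (untreated and treated). Of the 12, 0 were at background on both harvest 3 arrays, and 11 of 12 were well above it on both harvest 3 arrays. Their part in the Bmpr1a and Rgma values was not tested. By group, the stromal sum was 17.4 to 78.0 untreated and 12.9 to 75.5 treated, with 0 of 12 past the treatment test. The summed level of the erythroid and megakaryocyte markers was also lowest in harvest 3 (20.4 and 17.8, against 57.6 to 70.01 elsewhere). Pf4 had the highest level among them (6.05, 5.77 and 4.20 in untreated harvests 1, 2 and 3). Of 6 measured, 2 passed the harvest test, Pf4 and Itga2b. Hba-a1, Klf1, Gp1bb and Epor did not, with harvest 3 minus harvest 1 of 0.18, 0.17, 0.0028 and -0.12. The macrophage markers had their highest sum in harvest 3 (190.4 and 169.0, against 148.2 to 156.4 elsewhere). That sum is weighted to Lyz2, which did not pass the harvest test. Of 7 macrophage markers measured, 2 passed it, in opposite directions (3.06% of all genes passed). Csf1r was higher in harvest 3 than in harvest 1 (1.21) and Mrc1 lower (-2.46).

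**Figure D4:**
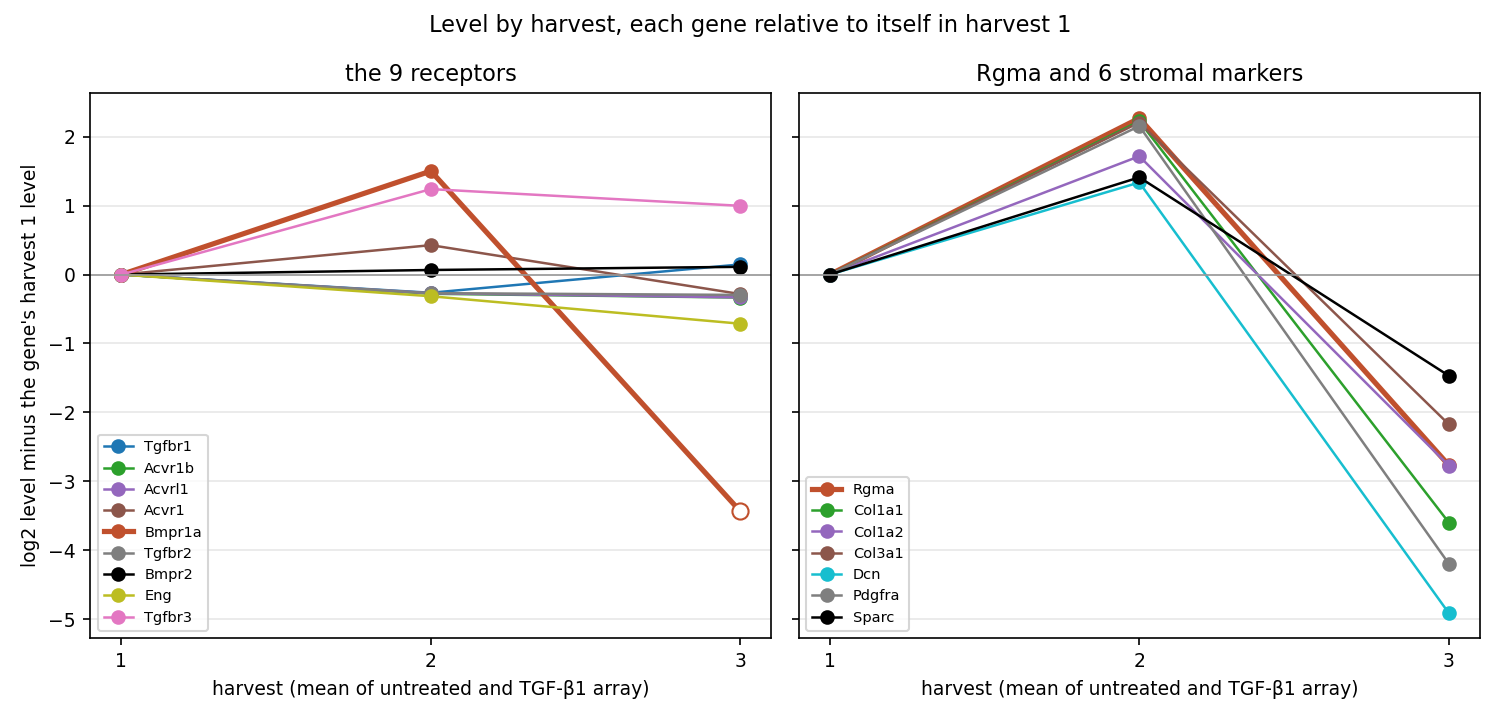
Log2 level by harvest (mean of the untreated and treated array), each gene minus its own harvest 1 level, for the 9 receptors (left) and for Rgma with the 6 stromal markers that differed between harvests (right). On these background-subtracted values Bmpr1a peaks in harvest 2 and is lowest in harvest 3, as are the genes on the right. Its harvest 3 value (open symbol) is not well above background. The 6 further stromal markers, which did not pass the harvest test on these values, are not drawn.

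On the reported values of all 6 arrays the other receptors did not pass the harvest test. Eng was lower in harvest 3 than in harvest 1 (-0.71, adjusted p = 0.131), Tgfbr3 was higher in harvests 2 and 3 than in harvest 1 (1.24 and 0.997, adjusted p = 0.198) and Acvr1 was lower in harvest 3 than in harvest 2 (-0.71, adjusted p = 0.196). Bmpr2 in harvests 2 and 3 differed from harvest 1 by 0.066 and 0.11 (adjusted p = 0.856). These calls moved with single arrays: without untreated replicate 3, Bmpr1a, Tgfbr3 and Acvr1b passed (27.8% of all genes), and without treated replicate 3, Bmpr1a, Tgfbr3, Acvr1 and Eng did (21.8% of all genes).

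Of the 12 further receptors and co-receptors of the family 9 were measured. Of these 0 passed, 2 had positive values and the median was -0.14. The type II activin receptor Acvr2b had -0.27 (SE 0.17), the decoy receptor Bambi -0.25 (SE 0.17) and the neuropilins Nrp1 -0.27 (SE 0.24) and Nrp2 -0.09 (SE 0.27). The type I receptor Acvr1c had 0.07 (SE 0.28), but a second, dimmer probe of it, well above background on 6 arrays, had -0.78 (SE 0.43). Tdgf1 (Cripto, the nodal co-receptor) had 0.17 (SE 0.26), Hjv (hemojuvelin) -0.14 (SE 0.15) and Rgma -0.22 (SE 1.61). Amhr2, the type II receptor of anti-Müllerian hormone, had -0.0013 (SE 0.28). Acvr2a, Bmpr1b and Rgmb did not reach 3 arrays well above background. The 2 Acvr2a probes were well above it on 0 of 3 untreated arrays and on 2 and 1 of 3 treated arrays. Their treated minus untreated was 0.96 and 0.81, on values mostly not well above background.

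Genes of proteins that act on the receptors or below them were measured alongside. Of 25 measured receptor regulators 1 passed, Ldlrad4, a membrane inhibitor of SMAD activation (log2 change 4.07, SE 0.27, limma adjusted p = 0.00614). With the replicate block there were 2, the other being Pmepa1, which sequesters receptor SMADs (1.79, adjusted p = 0.0363; 0.0849 without the block). The ubiquitin ligase Smurf2, which targets receptors for degradation, had 0.72 (SE 0.18, adjusted p = 0.335) and the receptor-associated protein Tgfbrap1 0.58 (SE 0.18, adjusted p = 0.534). Of 8 SMADs 2 rose, the inhibitory Smad7 (3.56, SE 0.15, limma adjusted p = 0.00115) and Smad6 (2.76, SE 0.16, adjusted p = 0.00397), and of the receptor SMADs Smad1 had 0.32 (SE 0.15, adjusted p = 0.957). Of 23 measured ligands and antagonists 0 passed; the activin subunit gene Inhba had -1.0045 (SE 0.21, adjusted p = 0.212) and the activin antagonist Fst 1.28 (SE 0.34, adjusted p = 0.386). Of 20 measured immediate targets 6 rose, Skil, Ski, Smad7, Smad6, Id3 and Hey1, and 0 fell. Smad6 and Smad7 stand on both lists.

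The genes most like the pair with the smallest p over the 6 arrays were found by Pearson's r, as a description. For Bmpr2 they were Ablim1 (r = 0.996), Pdzd8 (r = 0.992) and Pald1 (r = 0.992), of which Ablim1 (log2 change 1.31, limma adjusted p = 0.0284) and Pald1 (2.57, adjusted p = 0.00494) passed the treatment test. For Eng they were Sall2 (r = 0.997), Pear1 (r = 0.99) and Adgrg1 (r = 0.989), of which none passed. With only 6 arrays of 2 groups such values are common: 236 of 15659 other genes with a symbol had r above 0.9 with Bmpr2, and 167 with Eng.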

How the data were processed

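Each of 6 Cy3-labelled samples, 3 untreated and 3 given TGF-β1, had 1 Agilent array (design 014868, mm8), scanned and read with Feature Extraction 10.1.1.1. The deposited processed intensity has background and spatial trend removed and no scaling across arrays, as stated per the file headers. The authors' matrix holds log2 values, whose normalization is not given in the sources used here beyond limma, a tool in the submitters' processing notes. Spot flags in the files are the scanner software's other output.

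The main value was log2 processed signal, less the 75th percentile of its array, over 43379 non-control spots; outlier spots were left out, spots of a probe averaged, and probes kept if well above background on 3 of 6 arrays (36386 of 41174). Probes were named through unversioned RefSeq accessions with the table of GRCm38.p6 (23374 probes), and a gene took its passing probe of highest mean. The 9 receptors had 12 probes, of which 11 passed. The treatment test was limma 3.58.1 (R 4.3.3) without covariate, with the replicate number as a block as the alternative and Benjamini-Hochberg adjustment. Standard errors are moderated. The fits were also run on simulated data with known changes. For the treatment fits these data held no harvest differences and the spread of the blocked fit. The run therefore does not cover the unblocked fit on these arrays (median residual SD 0.241, against 0.158 with the block). Deviations from group means correlated at 0.607, 0.777 and 0.545 for same-numbered samples and -0.725 to 0.0713 for others; with the numbers from the labels and the harvests independent, the number is treated as a pair. Harvest 1 lay on slide 1, harvest 2 on slide 2, and harvest 3 had its untreated array on slide 1 and its treated array on slide 2. The number of arrays limits precision.

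Named were all 9 receptors, every measured further family receptor, from other pathway lists the genes past the threshold and up to 3 of smallest p, and 3 genes most like each of the 2 receptors of smallest p. Rgma and stromal markers were singled out for the harvest account after their values were seen. Members and lists were chosen with earlier results of these data known. The files hold no mean spot signal, so normexp (offset 50) used median spot and background signals.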

Additional observations from a re-analysis of the deposited data

How the results depend on the processing

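Of 27 alternative settings, 25 gave a count of called receptors. That count was 0 except with array weights (1), and with the replicate block joined to quantile normalization, to the authors' matrix values or to normexp with quantile normalization (2 each); the last 3 were chosen after the data were seen. The median of the 9 receptors ran from 0.21 to 0.74. The count of all genes and transcripts was 190 with the replicate block (72 shared with the 74), 5 with normexp and 0 with normexp and the block, 172 with the matrix values and 714 with the block, 369 with quantile normalization and the block, 220 for every probe with the block, 210 with normexp and quantile normalization and 981 with the block, and 660 with array weights. Leaving out 1 array gave 7 to 23, and leaving out 1 harvest with the block 26 (harvest 2), 42 (harvest 1) or 55 (harvest 3). Normexp scaled to the 75th percentile shifted the median of all genes to -0.16, and elsewhere it stayed between -0.07 and 0.05. The replicate block changed no receptor's call on the main values.

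Signs turned for 4 uncalled receptors, Acvr1 only within slide 2 (-0.0069). Bmpr1a was -0.13 with the slide as a block, -0.28 with normexp, with and without the replicate block, -1.17 without untreated replicate 3 and -0.81 without treated replicate 2, with a range of -1.17 to 1.62 over single arrays left out, and -2.08 within slide 2. Slides and single arrays there set harvests of different level against each other. Tgfbr3 was -0.20 with the slide block, -0.069 with normexp, with and without the replicate block, -0.42 within slide 1, -0.11 to 0.68 with single arrays left out and -0.17 from harvests 1 and 2. Acvrl1 was -0.45 to 0.19 with single arrays left out and 0.34 from harvests 2 and 3. The cause was not tested.

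Receptors differing between harvests numbered 2 with normexp and quantile normalization (Bmpr1a and Eng), 3 with normexp scaled to the 75th percentile (Acvrl1, Eng and Tgfbr3, with 54.5% of all genes called, and with Bmpr1a uncalled and highest in harvest 3), 2 with the matrix values (Bmpr1a and Eng), and 0 where probes had to be above background on all 6 arrays, which leaves out Bmpr1a. Leaving out 1 array gave 1 to 4. Bmpr1a in harvest 3 is limited by background.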

Other observations

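The genes whose levels over the 6 arrays were most like Bmpr1a, a likeness computed after its values were seen, were Col16a1 (r = 0.999), Emp2 (r = 0.999) and Sox9 (r = 0.999). Col16a1 encodes a fibril-associated collagen, Emp2 a tetraspan membrane protein and Sox9 a transcription factor of cartilage and epithelial progenitors. Col16a1 had levels of 0.86, 2.71 and -3.60 in untreated harvests 1, 2 and 3 and 0.86, 2.93 and -3.23 after treatment. Sox9 had -2.03, -0.12 and -6.20 untreated and -1.82, 0.44 and -5.66 treated. The harvest order was the same in all 3, with harvest 2 highest and harvest 3 lowest on both treatments. In all, 544 genes with a symbol had r above 0.9 with Bmpr1a, and the points share harvests, so these values describe 3 harvests and not 6 independent samples. The harvest 3 values of Bmpr1a that enter r are not well above background. With normexp and no quantile normalization, Bmpr1a was highest in harvest 3, by 1.205 over harvest 1 and 0.49 over harvest 2 (log2). The matrix values and quantile normalization, with or without normexp, kept harvest 3 lowest. The likeness is described for the background-subtracted values only.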
